A study of Mus musculus with 4 samples.

Results

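The cells described here are the macrophages of the mouse trachea. They were selected on their own counts, by a rule. A cell had at least 500 detected genes and at most 15% mitochondrial counts. It carried at least 5 unique molecular identifiers (UMIs, counted RNA molecules) of the complement genes C1qa, C1qb and C1qc, with at least 2 of these genes detected, and at least 1 UMI of the receptors Csf1r, Adgre1 or Mrc1. It carried none of the T cell genes Cd3e, Cd3d and Cd3g and none of the epithelial gene Epcam. The rule found 810 macrophages among 35901 cells, or 2.26%.

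The study examined where basal cells of the tracheal epithelium divide and what they become, and it removed β-catenin (Ctnnb1) from basal cells. All mice carried P63-CreER, Ki67-lsl-Dre and Rosa26-rsr-GFP. Controls were Ctnnb1-fl/+ and knockouts were Ctnnb1-fl/fl. All mice received tamoxifen, and tracheae were taken 10 days later, microdissected under a stereomicroscope into a dorsal and a ventral part, digested with papain and processed with a 5′ droplet kit. The Cre is driven by P63, a gene of basal cells, so that macrophages are not the cells in which the labels place the deletion, and the controls carry the Cre, the reporters and 1 floxed allele as well. There was 1 library per group. The labels give no number, sex or age of the mice behind each library. With a single library per group, region and genotype could not be tested against the spread between mice. Intervals on shares and ratios are at 95% and cover counting error only.

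Macrophages are phagocytes that live in almost every tissue, where they clear dying cells, foreign particles and excess protein and call in other immune cells through chemokines. In many tissues the resident cells fall into a perivascular kind with the hyaluronan receptor Lyve1 and the folate receptor Folr2, and a kind with more MHC class II, the molecules that present antigen to helper T cells. In the airway they lie in the connective tissue under the epithelium and around the submucosal glands.

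Controls gave 236 dorsal and 223 ventral macrophages, and knockouts gave 158 dorsal and 193 ventral ones. Every series of 4 values below keeps this order. They made up 1.78% (exact Clopper-Pearson interval 1.56% to 2.02%), 2.29% (2.0% to 2.61%), 2.55% (2.18% to 2.98%) and 2.87% (2.48% to 3.30%) of the cells kept. These shares depend on how well each cell type left the tissue in each digestion. The median macrophage held 6830, 8159, 11449.5 and 9459 UMIs, so that the control dorsal cells were the shallowest. Scrublet called 4, 1, 0 and 10 macrophages doublets, and they were kept. No macrophage barcode was shared between libraries, although pairs of libraries shared 21 to 57 barcodes over all cells.

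The macrophage markers were themselves genes of the rule, so they cannot check the label. All 5 macrophage markers were above 20 CPM (UMIs of a gene scaled to 1000000 UMIs) in every library, with a summed level of 13502 to 18519 CPM. C1qa stood at 5285, 3583, 5436 and 4769 CPM and Csf1r, the receptor for the growth factor on which macrophages depend, at 659, 653, 563 and 529 CPM. Because the rule chose cells on these genes, their levels only describe the selection. The median member carried 114, 103, 192 and 144 C1q UMIs, far above the limit. Just inside it, with 5 to 9 C1q UMIs, lay 4, 9, 0 and 3 cells. Just outside, with 2 to 4, lay 9, 13, 3 and 2 cells. Of 919 cells with enough C1q UMIs, 44 had none of the receptors, 2 carried a Cd3 gene and 69 carried Epcam. Among the members, 6, 2, 4 and 6 cells also met the UMI rule of another cell class and were kept as macrophages.

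Marker genes of other immune cells were low or absent. Their summed levels were 11.9 to 14.9 CPM for T and NK cells and 12.4 to 20.9 CPM for B and plasma cells. They were 19.8 to 22.7 CPM for neutrophils and 1.45 to 5.48 CPM for mast cells. Trbc1, Cd8a and Nkg7 had no UMI in macrophages of any library, and Cd3e, Cd3d and Cd3g had none by the rule. Cd4 was detected in every library and Trac in the knockout dorsal one. Csf3r, a neutrophil marker, stood at 21.8 and 19.8 CPM in the control libraries. Of 9 dendritic cell markers, 2 were above 20 CPM, and their summed level was 100 to 137 CPM. Of 12 genes of alveolar macrophages, Ear1, Ear2 and Pparg reached the level needed to be measured, while Car4, Marco, Chil3 and Krt79 had no UMI in any library. Of 13 monocyte genes 5 were measured, Ccr2 and Fn1 among them, while Ly6c2 had no UMI. RNA of other tissue cells was present. Summed epithelial markers stood at 2482, 1927, 640 and 862 CPM, and fibroblast markers at 418, 107, 106 and 202 CPM. Both sums were highest in the control dorsal library. Ribosomal protein genes took 10.3%, 11%, 13.7% and 10.8% of macrophage UMIs. The part of these differences in the results below was not tested, apart from the checks stated beside single genes.

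Ctnnb1, the gene deleted in basal cells, stood in macrophages at 81.9, 91.1, 53.9 and 86.3 CPM. It was lowest in the knockout dorsal library, and it was also lowest there in fibroblasts, with 124, 151, 91.9 and 125 CPM. Epithelial cells as 1 class held 240, 197, 187 and 156 CPM. The labels do not say which exons are deleted, so 5′ counts cannot check the deletion. The reporter eGFP read 123, 76.2, 83.1 and 53.3 CPM in macrophages, close to the 119, 101, 103 and 72.7 CPM of fibroblasts and below the 329, 297, 227 and 179 CPM of epithelial cells.

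The macrophages contained both kinds known from other tissues in every library. Lyve1 stood at 917, 353, 733 and 587 CPM and Folr2 at 753, 591, 431 and 578 CPM. Among genes of the Lyve1 kind, the platelet factor 4 chemokine gene Pf4 stood at 3126, 2306, 2550 and 1623 CPM. The coagulation factor gene F13a1 stood at 1118, 1059, 1106 and 1292 CPM, and the haemoglobin scavenger receptor gene Cd163 at 306, 285, 376 and 454 CPM. These 3 genes stayed within a 2-fold span over the libraries. On the class II side, Cd74, the chaperone of class II molecules, stood at 32087, 34985, 30963 and 30997 CPM. H2-Aa, which encodes a class II chain, stood at 10380.0, 10087, 9950 and 8452 CPM. The cytokine gene Il1b stood at 729, 507, 1058 and 1040 CPM, higher in both knockout libraries than in both controls.

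**Figure D1:**
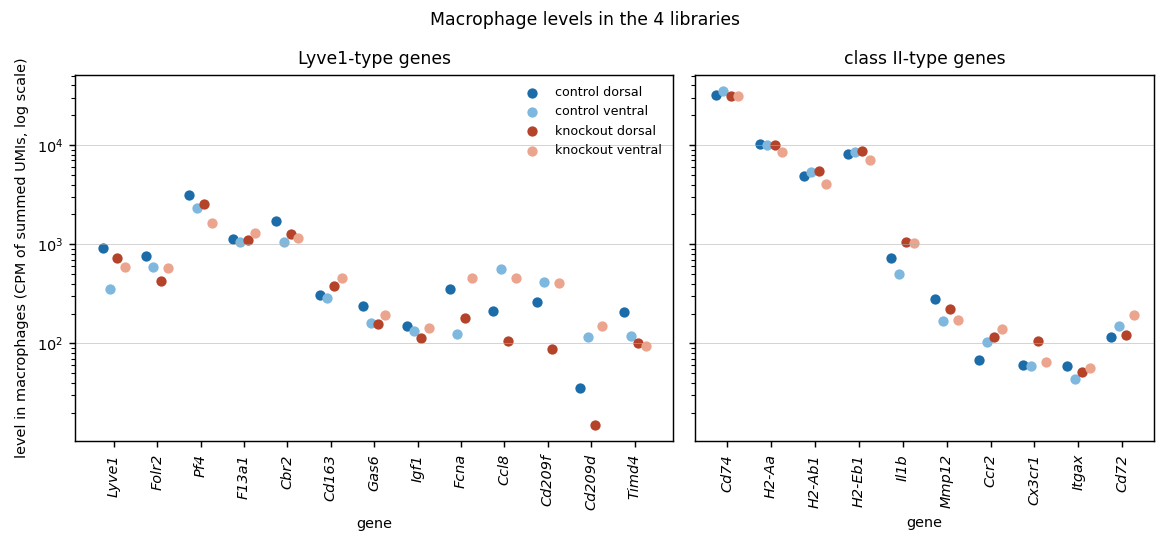
Level of genes of the Lyve1 kind and of the class II kind in macrophages, as CPM of macrophage UMIs on a log axis, with 1 point per library. Cd209d spreads from 15.1 to 149 CPM over the libraries, while Cd74 lies between 30963 and 34985 CPM.

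To compare the kinds, each macrophage was thinned at random to 4000 UMIs, which left out 34, 28, 12 and 25 shallower cells. Cells with at least 2 thinned UMIs of Lyve1 and Folr2 together were called positive and cells with none negative. Positive cells made up 63.9% (56.8% to 70.5%), 51.3% (44.0% to 58.5%), 48.6% (40.3% to 57.0%) and 47.6% (39.9% to 55.5%) of thinned macrophages. The control dorsal interval overlapped those of the control ventral and knockout dorsal libraries and lay above that of the knockout ventral library. Of 711 thinned cells, 380 were positive, 301 were negative and 30 had exactly 1 UMI and stood between. By the same measure 0% to 0.0750% of fibroblasts, 0.0327% to 0.128% of epithelial cells and 0% to 0.877% of T cells were positive, where a share of 0% allows up to 0.199% of fibroblasts and 4.69% of T cells. Before thinning, positive cells had a median of 6901, 8481.5, 12312 and 9769.5 UMIs and negative cells 8426, 9415.5, 11293 and 10672. The median negative cell still carried 111, 95, 168 and 144 C1q UMIs.

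**Figure D2:**
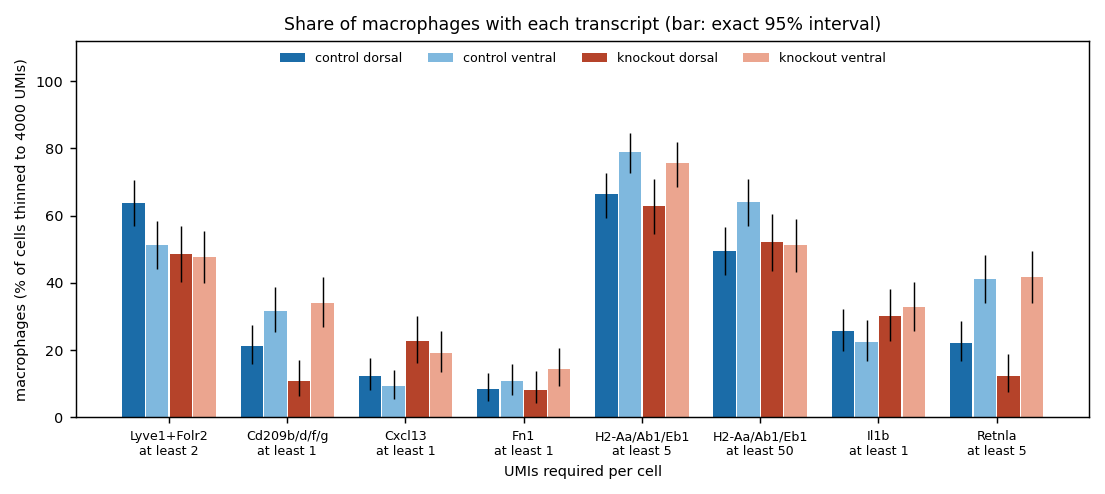
Percent of thinned macrophages that carry the named genes at the UMI minimum given on the axis, 1 bar per library, with exact 95% Clopper-Pearson intervals for counting error. Cells with at least 5 UMIs of Retnla are scarcer in both dorsal libraries. Shares of cells with Cd209 genes are lower dorsally too, but their intervals overlap in controls. Shares of cells with Cxcl13 are higher in the knockout libraries, with overlapping intervals in each region.

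The positive and negative cells differed in many genes. Summed thinned counts of both classes were compared in the 4 libraries with edgeR's quasi-likelihood test, with the library as a block and Lyve1 and Folr2 themselves left out. Of 5438 genes tested, 763 rose in positive cells (14%) and 824 fell (15.2%), together 29.2%, at a Benjamini-Hochberg adjusted p of 0.05. The 4 libraries are different regions and genotypes, so the test asks for a difference shared over them. Of the list genes called, 149 lay on the called side in 4 of 4 libraries and 7, Ccl3 among them, in 3. The classes were divided at a UMI limit, and whether they form a range or separate types was not tested. The lists of both kinds were made of genes known to follow Lyve1 or class II in macrophages, so their direction is no independent evidence.

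Fcna led the genes that rose in positive cells. Fcna, which encodes the pattern-binding protein ficolin A, read 504, 268, 401 and 738 CPM in positive cells. In negative cells it read 3.97, 2.91, 0 and 3.09 CPM. The difference was 7.20 (SE 0.33) on the log2 scale, with an adjusted p of 1.37e-14 by edgeR's quasi-likelihood test and Benjamini-Hochberg adjustment, and Fcna was higher in 4 of 4 libraries. Cd209f, a lectin of the DC-SIGN family, read 457, 882, 165 and 828 CPM in positive cells and 0, 14.5, 0 and 0 CPM in negative cells (log2 6.96, SE 0.35). Cbr2, a carbonyl reductase gene, rose by 3.82 (SE 0.19) on the log2 scale, F13a1 by 3.44 (SE 0.17) and Pf4 by 3.24 (SE 0.17). Ltc4s, which makes leukotriene C4, rose by 4.04 (SE 0.21), the endothelin receptor gene Ednrb by 6.40 (SE 0.34) and Gas6, a bridge between dying cells and their receptors, by 4.62 (SE 0.27). Fxyd2, a regulator of the sodium pump, rose by 3.51 (SE 0.19) and Cd163 by 4.35 (SE 0.25). Of the list of genes of the Lyve1 kind, 18 of 19 tested rose and none fell. The exception was the lectin gene Mgl2, at log2 0.53 with an adjusted p of 0.073 by the same edgeR test and Benjamini-Hochberg adjustment. The median of the list was 3.92 against -0.01 over all genes tested.

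Il1b and the class II list stood with the negative cells. Il1b read 2004, 1180, 1567 and 2321 CPM in negative cells and 5.81, 2.50, 28.2 and 25 CPM in positive cells. The log2 difference was -7.21 (SE 0.25, adjusted p 1.40e-16 by edgeR's quasi-likelihood test with Benjamini-Hochberg adjustment), and Il1b was lower in positive cells in 4 of 4 libraries. Mmp12, the macrophage elastase, read 802, 451, 489 and 370 CPM in negative cells and 0, 0, 0 and 3.13 CPM in positive cells (log2 -9.26, SE 0.37). Fn1, the fibronectin gene, read 325, 488, 310 and 821 CPM in negative cells against 5.81, 17.5, 3.52 and 12.5 CPM in positive cells. Its log2 difference was -5.70 (SE 0.25). The interleukin 7 receptor gene Il7r (-6.55), Cd72 (-4.92), Cd52 (-4.39) and the signalling regulator gene Rgs1 (-3.35) fell on the same log2 scale. So did the survival genes Bcl2a1a, Bcl2a1b and Bcl2a1d, at -7.43, -3.49 and -5.47. The Bcl2a1 genes are near-identical copies, and reads may be split between them. All 13 genes of the class II list tested fell, with a median of -2.87. They included Cd74 (-2.69, SE 0.18), H2-Aa (-2.85), the integrin gene Itgax (-7.14) and the monocyte receptor genes Ccr2 (-2.87) and Cx3cr1 (-1.95).

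**Figure D3:**
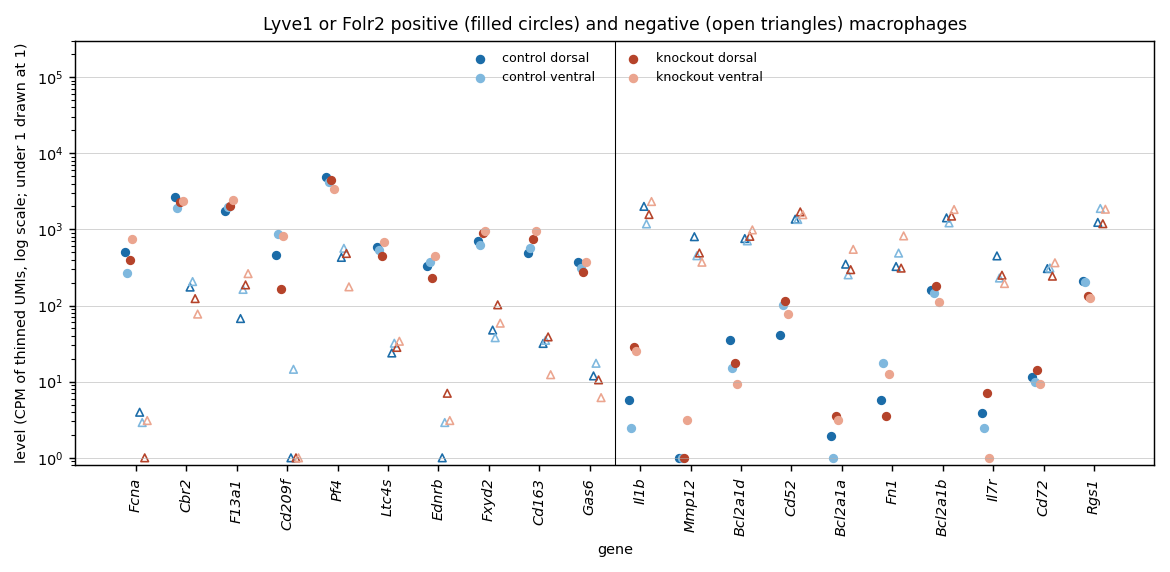
The 20 genes named for the difference between Lyve1 or Folr2 positive macrophages (filled circles) and negative macrophages (open triangles), as CPM on a log axis with 1 point per library, values under 1 CPM drawn at 1. In all 20 genes the circles and triangles of the 4 libraries do not overlap.

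Some genes were found in 1 class alone. Vsig4, a complement receptor of resident macrophages, had 139 thinned UMIs over the positive cells and none over the negative cells, at least 36.7-fold higher against a floor of 3 counts over the group. Dcstamp, needed for the fusion of macrophages, had 255 UMIs over the negative cells and none over the positive cells, at least 107-fold lower in positive cells. Cd207, the langerin gene, was at least 32.4-fold lower there by the same bound.

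Uptake, complement and iron genes were also counted, beside 14% and 15.2% of all genes that rose and fell. Of 16 uptake genes tested, 11 rose and 4 fell. Without the 6 that are on the Lyve1 list or were used by the rule, 5 of 10 rose and 4 fell. The scavenger receptor gene Stab1 rose by 2.89 and the collectin gene Colec12 by 4.11, both on the log2 scale. Timd4, a receptor for phosphatidylserine on dying cells, rose by 3.81 and Mrc1, the mannose receptor that was also used to choose the cells, by 2.48. The β-glucan receptor gene Clec7a, the phosphatidylserine receptor gene Havcr2, the integrin gene Itgav and the receptor gene Axl fell by 2.32, 3.48, 1.95 and 3.55. Of 14 complement genes, 8 rose and 1 fell. C4b rose by 5.34, while C1qa (0.32) and C1qc (0.58), which the rule used, rose by less. The gene that fell was Itgax, a complement receptor chain. Without Itgax, which is on the class II list, and the 3 C1q genes, 6 of 10 rose. Of 10 iron and haem genes, 6 rose, with the haem oxygenase gene Hmox1 at 2.08 and the transferrin receptor gene Tfrc at 2.49. The 2 that fell were the ferritin gene Fth1 (-0.66) and the metal transporter gene Slc11a1 (-1.0). Without Cd163, which is on the Lyve1 list, 5 of 9 rose and 2 fell.

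Digestive and lipid genes were mixed, beside 14% of all genes that rose and 15.2% that fell. Of 24 lysosome genes, 10 rose and 5 fell. Cathepsin L (Ctsl, 1.27) and progranulin (Grn, 1.05) were among those that rose, and Ctsz (-1.19) and Ctss (-1.12) among those that fell, on the log2 scale. Of 10 lipid genes, 5 rose, with the cholesterol exporter gene Abca1 at 1.13, and 3 fell, with the lipoprotein lipase gene Lpl at -2.91 and the other cholesterol exporter gene Abcg1 at -2.14. Of 6 Fc receptor genes, which bind antibodies, 3 rose and 1 fell. Fcgrt, which recycles antibody, rose by 2.93 and the activating receptor gene Fcgr4 fell by 3.81.

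Chemokine genes divided between the classes, where 14% of all genes rose and 15.2% fell. Ccl8 (5.19), Ccl7 (3.94), Ccl24 (3.92), Ccl12 (2.86), Ccl2 (2.62) and the B cell attractant Cxcl13 (1.95) were among 9 of 17 that rose, as log2 differences. Cxcl16 (-2.02), Ccl4 (-2.04), Cxcl10 (-1.82), Ccl3 (-1.40) and Cxcl14 (-5.39) were among 7 that fell. Without Pf4, Ccl8 and Ccl24, which are on the Lyve1 list, 6 of 14 rose and 7 fell. Of 11 inflammatory genes, none rose and 6 fell, Nlrp3 (-1.85), Ptgs2 (-4.07) and Il1a (-4.25) among them. Without Il1b, which is on the class II list, 5 of 10 fell. Tnf (-0.36) and Il10 (0.48) did not pass the test. Of 11 growth factor genes, 6 rose and 1 fell. Without Igf1 and Gas6, which are on the Lyve1 list, 4 of 9 rose and 1 fell. Igf1 rose by 2.44 and Hbegf by 2.35, and Pdgfb fell by 2.39.

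Transcription factors and pathway genes were counted beside the same shares of all genes, 14% that rose and 15.2% that fell. Of 25 transcription factor genes, 8 rose, led by Maf (2.83) and Tfec (2.53) and including Klf4 (1.03), and 6 fell, with the lipid-sensing receptor gene Pparg at -1.95 and Irf5 at -1.36. Of 15 glucocorticoid-responsive genes, 7 rose and 1 fell, with the metallothionein gene Mt2 at 2.09 and Klf9 at 1.66. Cd163 of the Lyve1 list was among the 7. Of 18 interferon response genes, 4 rose and none fell, the 4 being Oas2 (2.11), Ifi204 (1.36), Ifi27l2a (0.99) and Rtp4 (0.84). Of 12 microbial sensor genes, 2 rose and 5 fell, the lipopolysaccharide coreceptor gene Cd14 by 1.62 and the lipoprotein sensor gene Tlr1 by 2.73. Of 21 genes that respond to tissue handling, 4 rose and 4 fell, near the shares of all genes. Of 22 macrophage identity genes, 7 rose and 9 fell, Mertk (1.06) and Mpeg1 (-2.14) among them. Those that rose included Csf1r and Mrc1, which the rule used, and those that fell included Cx3cr1 of the class II list.

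Class II was not confined to negative cells. At least 5 thinned UMIs of H2-Aa, H2-Ab1 and H2-Eb1 together were present in 100% of negative cells in every library and in 47.3%, 59%, 25.4% and 50% of positive cells. At 50 UMIs the shares were 98.4%, 95.3%, 97.2% and 88.9% of negative cells and 22.5%, 34%, 8.45% and 11.3% of positive cells. Cd74 in positive cells read 12269, 17940, 5768 and 8913 CPM. It was lower in both knockout libraries, with ratios of 0.470 and 0.497 to the control of the same region. In negative cells Cd74 read 66929, 54552, 57880 and 54278 CPM.

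Dorsal and ventral macrophages were then compared within each genotype, as ratios of CPM with 0.5 UMIs added. A gene counted as measured with at least 50 macrophage UMIs in 1 library of the pair. In controls, 66 of 5348 measured genes were more than 2-fold higher dorsally (1.23%) and 139 lower (2.6%), together 3.83%. In knockouts, 46 of 5366 were higher (0.857%) and 338 lower (6.3%), together 7.16%. The median log2 ratio over all genes was 0.02 in controls and -0.13 in knockouts. With median-of-ratios size factors the knockout counts became 78 higher and 207 lower. In both genotypes together, 12 of 5010 genes measured in both were higher (0.24%) and 58 lower (1.16%).

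Resistin-like alpha, Retnla, a secreted protein of alternatively activated macrophages, was lower dorsally. It stood at 4594, 12939, 2457 and 14276 CPM, both ventral libraries lying above both dorsal ones. Control macrophages thus had a dorsal to ventral ratio of 0.355 (0.346 to 0.364), and knockout macrophages one of 0.172 (0.167 to 0.178). At least 5 thinned UMIs were present in 22.3%, 41.0%, 12.3% and 41.7% of macrophages. Fibroblasts held 0.4 to 3.8 CPM of Retnla and epithelial cells 1.5 to 20 CPM. The difference was present in both classes. In positive cells the ratio was 0.338 (0.322 to 0.356) and 0.138 (0.123 to 0.154), and in negative cells 0.619 (0.577 to 0.663) and 0.308 (0.287 to 0.331).

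The chemokine gene Ccl8 was also lower dorsally. It stood at 211, 562, 106 and 454 CPM, with dorsal to ventral ratios of 0.375 (0.332 to 0.423) and 0.233 (0.199 to 0.272). Within positive cells the ratios were 0.409 and 0.229. Cd209 lectin genes were lower dorsally too. Cd209d stood at 35.3, 115, 15.1 and 149 CPM, with ratios of 0.310 (0.228 to 0.410) and 0.103 (0.0664 to 0.150). Cd209f stood at 259, 415, 86.8 and 405 CPM, with ratios of 0.625 and 0.215, and within positive cells of 0.519 and 0.202. Any of Cd209b, Cd209d, Cd209f and Cd209g was detected in 21.3%, 31.8%, 11% and 33.9% of thinned macrophages. The exact intervals of these shares overlapped between the control libraries and not between the knockout libraries. The Cd209 genes are close copies of each other, and the split of reads between them is uncertain.

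Other genes were lower dorsally as well. The lysozyme gene Lyz1 stood at 67.1, 313, 145 and 1443 CPM (ratios 0.215 and 0.100, and 0.373 and 0.187 after thinning), but it is a near copy of Lyz2, which stood at 9590, 6700, 12762 and 8935 CPM. Lyz1 was abundant in ventral epithelium, at 1011 CPM in controls and 5604 CPM in knockouts, and ventral T cells held 53.9 and 179 CPM. Mrps6, a mitochondrial ribosome gene, stood at 187, 502, 209 and 542 CPM (ratios 0.372 and 0.385). The inositol transporter gene Slc5a3 stood at 21.2, 82.4, 36.7 and 110 CPM (ratios 0.260 and 0.336), and the nuclear factor gene Aff3 at 25.9, 84.4, 18.9 and 100 CPM. That these 3 genes were lower dorsally in both pairs was a condition of the naming rule. The same rule also named Pde4c, Gm57325 and Gm21859.

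Cxcl13 was higher dorsally. It stood at 417, 92.6, 1001 and 514 CPM, so that within each genotype the dorsal library held more. The ratio was 4.50 (3.84 to 5.31) in controls and 1.95 (1.80 to 2.10) in knockouts. At least 1 thinned UMI of Cxcl13 was present in 25 of 202, 18 of 195, 33 of 146 and 32 of 168 macrophages. Within each genotype the exact intervals of these shares overlapped, so a dorsal difference in the share of cells was not resolved. The ratios thus rest on the UMIs of few cells, and their intervals do not cover the spread between cells. In fibroblasts the dorsal to ventral ratio of Cxcl13 ran the other way, at 0.19 and 0.13. Vsig4 stood at 90.7, 12.1, 60.4 and 23.9 CPM, with ratios of 7.40 (4.91 to 12.0) and 2.51 (1.78 to 3.62). After thinning, the knockout ratio of Vsig4 was 1.49, and within positive cells it was 1.53 (0.857 to 2.80). Il1rn, the interleukin 1 receptor antagonist, stood at 223, 117, 255 and 141 CPM, with ratios of 1.91 (1.62 to 2.26) and 1.81 (1.56 to 2.10). It was higher dorsally in both classes, at 2.42 and 3.13 in positive cells and 1.98 and 1.58 in negative cells. In epithelial cells Il1rn was higher dorsally as well, at 2.2 and 2.5.

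Several of the remaining genes higher dorsally moved alike in other cells. Tppp3, a tubulin-binding protein gene, stood at 246, 88.2, 279 and 85.3 CPM (ratios 2.79 and 3.26), against 2.28 and 2.87 in fibroblasts and 3.25 and 3.41 in epithelial cells. The part of such library-wide differences in the macrophage ratio was not tested. Ildr2 stood at 37.7, 9.64, 31.3 and 1.99 CPM (ratios 3.84 and 14.1, the latter 7.57 with 5 UMIs added). Barx2, a homeobox gene, stood at 30.0, 9.64, 31.3 and 5.98 CPM (ratios 3.07 and 5.06, and 2.5 and 2.6 in epithelial cells). The intermediate filament gene Vim stood at 4616, 2859, 5044 and 2179 CPM (ratios 1.61 and 2.31). Plp2 stood at 106, 40.0, 129 and 55.3 CPM (ratios 2.64 and 2.32), and Dpysl3 and Sh3bp5 were the last of the 10 named.

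**Figure D4:**
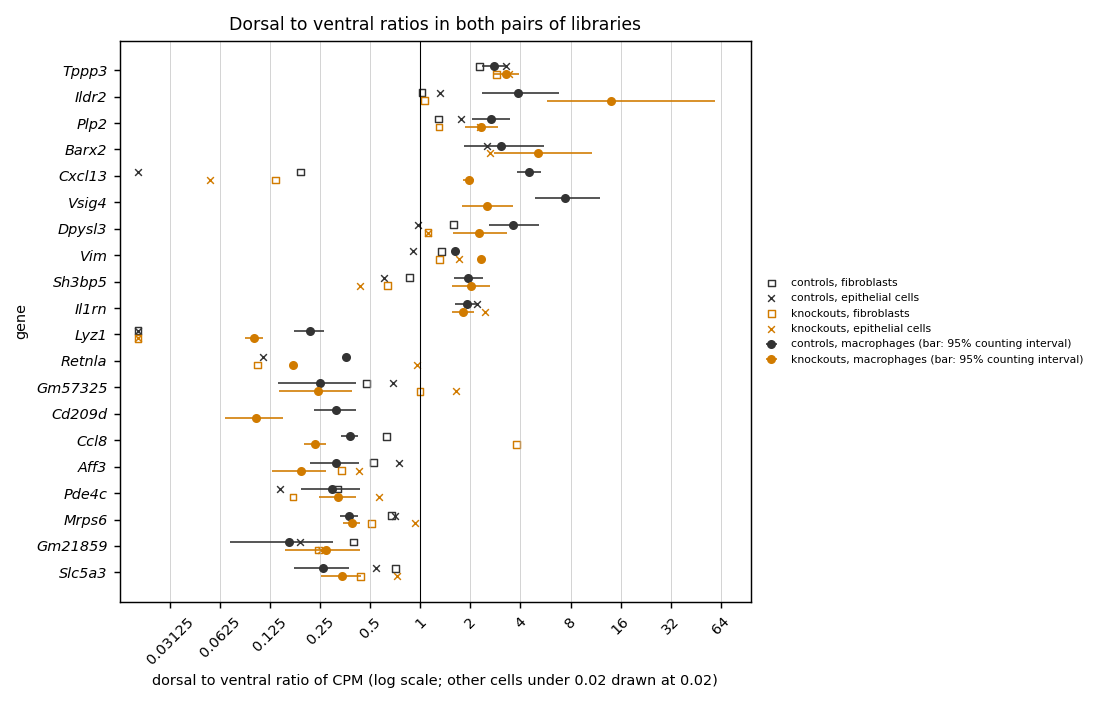
Dorsal to ventral ratio of CPM in macrophages for the 20 genes named for this comparison, on a log axis, in controls and in knockouts, with bars for the 95% counting interval, squares for fibroblasts and crosses for epithelial cells. Genes were named only if they lay on the same side of 1 in both genotypes in macrophages, so that shared side is no finding. For Tppp3 and Barx2 the other cells lie on that side too.

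The regional difference of some genes was not alike in both genotypes. For Lyve1 the ratio was 2.60 (2.38 to 2.84) among control libraries and 1.2 (1.15 to 1.35) among knockout libraries. Fcna stood at 355, 124, 180 and 462 CPM and was higher dorsally in controls, at 2.86 (2.47 to 3.33), and lower dorsally in knockouts, at 0.389 (0.342 to 0.441). Within positive cells the Fcna ratios kept these sides, at 1.88 (1.5 to 2.38) and 0.546 (0.431 to 0.683). The acid phosphatase gene Acp5 stood at 101, 33.8, 128 and 109 CPM, low in the control ventral library alone. The urokinase gene Plau stood at 103, 116, 49.1 and 167 CPM, and its ratio was 0.888 in controls and 0.295 in knockouts. The growth factor gene Areg, found in a small share of cells, stood at 60.7, 100, 49.6 and 14 CPM, and its knockout ratio of 3.51 was 1.56 after thinning. The difference between these genotype pairs could not be tested with 1 library each.

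Over the fixed lists, the measured genes of the Lyve1 kind had a median log2 dorsal to ventral ratio of 0.13 in controls and -0.42 in knockouts. In controls 2 of 21 were more than 2-fold higher and 4 lower, against 1.23% and 2.6% of all genes. In knockouts none was higher and 7 lower, against 0.857% and 6.3%. The class II list had medians of -0.12 and 0.03, with no gene past 2-fold. Lysosome genes had medians of 0.37 and -0.17, and 22 of 24 lay above 1 in controls and 9 of 24 in knockouts, where 53.2% and 39.5% of all genes did. All 6 Fc receptor genes lay above 1 in controls and 4 of 6 in knockouts, with medians of 0.42 and 0.30. Complement genes had medians of 0.41 and -0.14, and transcription factors 0.01 and 0.00.

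Genes known to respond to tissue handling were lower dorsally, with median log2 ratios of -0.58 and -0.47. In each genotype 4 of 21 lay above 1, against the 53.2% and 39.5% of all genes. The heat shock gene Hspa1a stood at 121, 626, 410 and 724 CPM, a ratio of 0.194 in controls and 0.566 in knockouts. In fibroblasts the Hspa1a ratio was 0.889 and 1.31. Jun stood at 616, 1242, 806 and 1241 CPM. The neutrophil attractant Cxcl2, which such treatment can also induce, stood at 2432, 5007, 2412 and 3734 CPM (ratios 0.486 and 0.646). The part of handling in the other regional differences was not tested.

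Knockout and control macrophages were compared within each region in the same way. Dorsally, 74 of 4944 measured genes were more than 2-fold higher in the knockout library (1.5%) and 200 lower (4.05%), together 5.54%. Ventrally, 60 of 5552 were higher (1.08%) and 69 lower (1.24%), together 2.32%. The median log2 ratio of all genes was -0.14 dorsally and 0.01 ventrally, and with median-of-ratios size factors the dorsal counts became 104 higher and 134 lower. In both regions together, 10 of 4792 genes were higher (0.209%) and 21 lower (0.438%).

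Apoe and Cxcl13 were higher in both knockout libraries, although their lists were not. The list of lipid genes had median log2 ratios of -0.33 dorsally, with 4 of 9 measured above 1, and -0.26 ventrally, with 3 of 10. The chemokine medians, given below, were negative as well. Apoe, the apolipoprotein E gene, stood at 6241, 5415, 10772 and 9135 CPM, both knockout libraries above both controls. The knockout to control ratio was 1.73 (1.69 to 1.77) dorsally and 1.69 (1.65 to 1.73) ventrally, against 1.1 and 0.69 in fibroblasts and 1.4 and 1.3 in epithelial cells. It was above 1 in both classes, at 1.44 and 1.64 in positive cells and 2.20 and 1.72 in negative cells. Cxcl13 had ratios of 2.40 (2.20 to 2.62) and 5.54 (4.76 to 6.51). The Cxcl13 difference lay in positive cells, where the ratios were 3.37 and 6.94 against 0.946 and 1.45 in negative cells. Cxcl13 was detected in 15.5%, 16%, 40.8% and 36.3% of positive cells and in 1.23% to 4.76% of negative cells.

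Arg2, the mitochondrial arginase gene, stood at 17.1, 21.2, 90.6 and 75.8 CPM. Its ratio was 5.23 (3.56 to 8.16) dorsally and 3.54 (2.54 to 5.12) ventrally, and it was above 1 in both classes (7.87 and 3.75 in positive cells, 2.20 and 4.19 in negative cells). Epithelial cells had Arg2 ratios of 1.8 and 1.4. Fkbp5, a glucocorticoid-responsive chaperone gene, stood at 24.1, 62.2, 102 and 154 CPM, with ratios of 4.2 (3.01 to 6.10) and 2.46 (2.0 to 3.06). Fkbp5 was about 2-fold higher in the knockout libraries in other cells too, at 1.98 and 2.01 in fibroblasts and 1.93 and 1.75 in epithelial cells. Of 16 glucocorticoid-responsive genes, 15 were measured, with median log2 ratios of 0.16 and 0.15. Dorsally 2 were more than 2-fold higher, against 1.5% of all genes, and ventrally 1, against 1.08%. The sulfatase gene Arsb stood at 31.2, 30.4, 69.0 and 69.8 CPM (ratios 2.20 and 2.29) and Glipr1 at 244, 287, 406 and 471 CPM (ratios 1.66 and 1.64). Fibroblasts had Arsb ratios of 0.61 and 0.74.

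Ear1, an eosinophil-associated ribonuclease gene that alveolar macrophages also express, had no UMI in either control library. It had 66 UMIs in the knockout dorsal and 212 in the knockout ventral library, at least 20.1-fold and 73.1-fold higher against a floor of 3 counts per library. These UMIs came from 3.8% and 8.29% of the cells. Its close copy Ear2 stood at 47.1, 142, 59.3 and 129 CPM, with no such difference between genotypes, and the division of reads between both genes is uncertain. The same rule also named Gm21860, Lyz1 and Pde4c.

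Ccl7, Cxcl10 and Gdf15 were among the genes lower in both knockout libraries. Ccl7, a monocyte attractant, stood at 1268, 1431, 509 and 645 CPM, both controls above both knockouts. The ratio was 0.402 (0.372 to 0.434) dorsally and 0.451 (0.422 to 0.481) ventrally, and in positive cells 0.416 and 0.518. Fibroblasts had Ccl7 ratios of 1.1 and 1.6. Cxcl10, an interferon-induced T cell attractant, stood at 171, 264, 52.3 and 86.8 CPM, with ratios of 0.306 (0.240 to 0.385) and 0.329 (0.275 to 0.390). It was lower in fibroblasts (0.46 and 0.38) and epithelial cells (0.24 and 0.49) as well. Gdf15, a stress-induced hormone gene, stood at 260, 331, 86.8 and 120 CPM (ratios 0.335 and 0.363). The phosphodiesterase gene Pde4d stood at 153, 127, 53.4 and 66.3 CPM, the Ras regulator gene Rasa4 at 106, 103, 39.9 and 48.9 CPM and Fnip2, which acts in nutrient sensing, at 269, 390, 122 and 216 CPM. In each of these genes both knockout values lay below both control values. Gm56626, Entpd7, Lonrf1 and Gas2l3 were the others named.

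**Figure D5:**
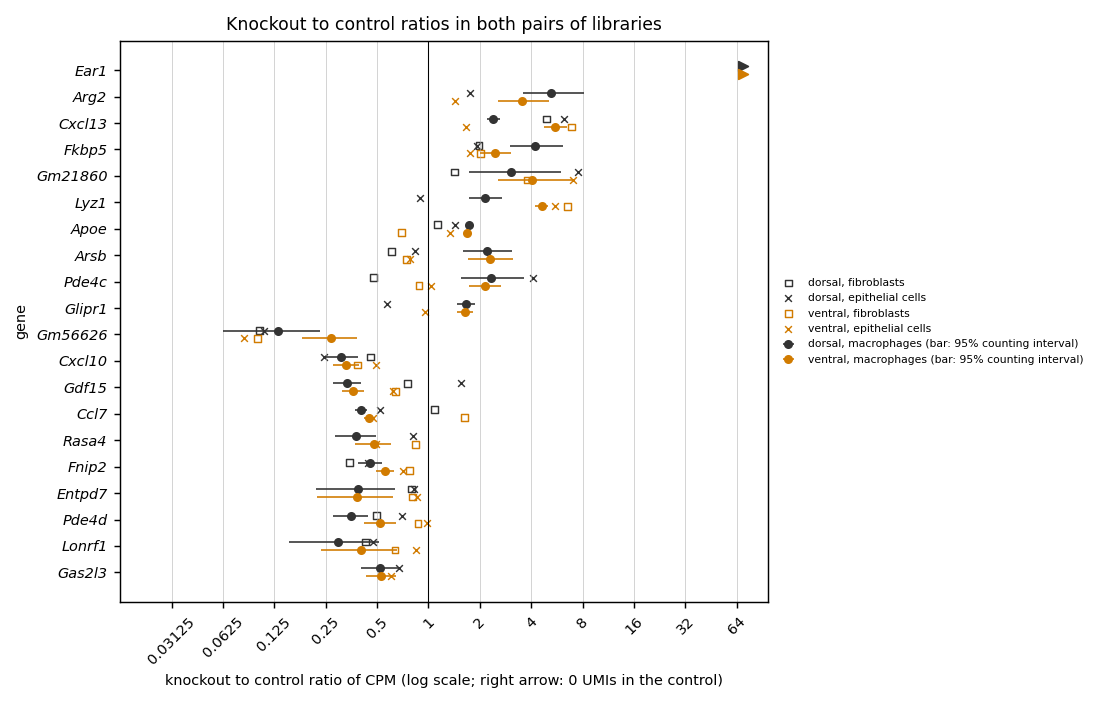
Knockout to control ratio of CPM in macrophages for the 20 genes named for this comparison, on a log axis, dorsally and ventrally, with bars for the 95% counting interval, squares for fibroblasts and crosses for epithelial cells. Ear1 is drawn as an arrow because its control libraries held no UMI, and Apoe, Arsb and Ccl7 lie apart from fibroblasts.

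Other genes differed in 1 region, or in opposite directions in both. Dorsally, the ferroxidase gene Heph stood at 326 CPM in the control and 1063 CPM in the knockout library (ratio 3.26), and the glutamate receptor gene Grik3 at 1556 and 3717 CPM (ratio 2.39). Both ratios were about as high in fibroblasts and epithelial cells, at 3.2 and 3.2 for Heph and 3.3 and 2.9 for Grik3, and the part of this library-wide difference was not tested. The cytokine receptor gene Il31ra stood at 27.1, 56.4, 90.6 and 29.9 CPM, with ratios of 3.32 dorsally and 0.532 (0.382 to 0.730) ventrally. After thinning, the ventral ratio of Il31ra was 0.907, close to 1. Ventrally, the chemokine gene Ccl6 stood at 1523, 1494, 1681 and 3190 CPM, a ratio of 2.14 (2.05 to 2.23), and Fcna had a ratio of 3.72 there and of 0.506 (0.441 to 0.579) dorsally. Also ventrally, Ccl12 (142, 254, 115 and 80.8 CPM) and Cxcl1 (252, 530, 245 and 209 CPM) were lower, at ratios of 0.319 and 0.395. Areg had a ventral ratio of 0.141.

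Genes of the Lyve1 kind were lower in the knockout dorsal library as a group. Of 20 measured, 19 had a ratio below 1, none was more than 2-fold higher and 3 were more than 2-fold lower, where 4.05% of all genes were. The median log2 ratio was -0.51 against -0.14 for all genes. Cd209f (ratio 0.336), Timd4 (0.484) and Folr2 (0.573) were examples, with Timd4 at 210, 118, 101 and 95.2 CPM. The class II list had a median of 0.07 there. Ventrally the medians were 0.15 and -0.15. The share of positive cells was also lower in the knockout dorsal than in the control dorsal library, with overlapping intervals, as given above. That share is set by Lyve1 and Folr2, which are on the Lyve1 list, so it is no independent evidence. Of 10 growth factor genes measured, none lay above 1 dorsally, against 37.4% of all genes, and their median was -0.56. Lysosome genes had medians of -0.27 dorsally and 0.21 ventrally.

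Interferon response genes were lower in the knockout dorsal than in the control dorsal library. Of 18 measured, 2 had a ratio above 1, against 37.4% of all genes in this pair. Of the 18, 4 were more than 2-fold lower, against 4.05% of all genes, and the median log2 ratio was -0.65 against -0.14. Ventrally 10 of 15 lay below 1, 1 was past 2-fold and the median was -0.14. The control dorsal library was the high one, with 16 of 19 genes above 1 against control ventral (median 0.28), while knockout dorsal against ventral had 8 of 13 above 1 (median 0.07). Ifit1 stood at 43.6, 21.2, 5.39 and 3.99 CPM and the ubiquitin-like Isg15 at 236, 233, 156 and 136 CPM. Ifit1 was low in other cells of the knockout dorsal library too, with a ratio of 0.25 in fibroblasts and 0.43 in epithelial cells. The antiviral gene Rsad2 had a ratio of 0.125 dorsally, or 0.235 after thinning.

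Clock genes were lower in the same library. Of 8 measured, none lay above 1 dorsally, against 37.4% of all genes, and 4 were more than 2-fold lower, against 4.05%. The median log2 ratio was -0.83, and ventrally it was -0.16 with 4 of 7 below 1. The repressor gene Nr1d1 stood at 45.4, 13.5, 4.31 and 12.0 CPM, and its dorsal ratio of 0.100 stood beside 0.161 in fibroblasts and 0.211 in epithelial cells. The labels give no hour of collection. Handling genes had medians of 0.34 dorsally and 0.13 ventrally, with Hspa1a at a ratio of 3.37 dorsally and 1.16 ventrally. Of 18 chemokine genes, 15 were measured dorsally and 16 ventrally, with medians of -0.31 and -0.45. Dorsally 1 was more than 2-fold higher and 2 lower, against 1.5% and 4.05% of all genes. Ventrally 2 were higher and 4 lower, against 1.08% and 1.24%. Inflammatory genes had medians of 0.32 and 0.01, and Il1b had ratios of 1.45 and 2.05.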

How the data were processed

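Single-cell RNA was measured in 4 libraries, 1 per group. The authors deposited raw UMI counts for 33697 features, made with Cell Ranger 10.0.0 on GRCm39, per the submitters' processing notes; the filters of cell calling are not stated there. The members and gene lists were chosen with earlier results of these data known. Macrophage UMIs were summed per library (1697744 to 2074199) and given as CPM. Ratios had 0.5 UMIs added and conditional binomial intervals, shares exact Clopper-Pearson intervals (scipy 1.17.1). Positive and negative cells, thinned to 4000 UMIs, were compared with edgeR 4.0.16 (R 4.3.3), with Benjamini-Hochberg adjustment over all genes tested and DESeq2 1.42.0 as an alternative. On simulated data with 5156 genes, this test recovered 77% of 2-fold and 97% of 4-fold changes, with 3.87% false calls. The simulation changed 100 genes at each fold, drawn from the better-counted genes, and gave all genes the same dispersion. In the data 29.2% of genes were called, so these rates may not carry over.

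Genes were named by a rule. Per comparison these were the 10 each way with the interval bound farthest from 1 over both pairs, at 20 CPM or more and on 1 side of unity in each pair. Up to 5 per pair held in 1 pair alone. For the classes they were the 10 each way with the lowest adjusted p in step in all 4 libraries. List members came by level. Genes under 25% of their level in another cell class were set aside, as were ribosomal, mitochondrial and handling genes. Other cell classes served for comparison, among them 18064 epithelial cells and 6767 fibroblasts. Scrublet (scanpy 1.11.5) used its automatic threshold, except in the knockout ventral library, where that called 0.223% and a fixed rate called 3.09%. Fold 2 marked a called ratio. Alternatives changed the member rule, the UMI minimum, scaling, thinning, the class genes and the library block.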

Additional observations from a re-analysis of the deposited data

Results flagged for a closer look

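Fcna, Il31ra and Heph differed by more than 2-fold between dorsal and ventral macrophages in both genotypes and in opposite directions. The dorsal to ventral ratio of Fcna was 2.86 in controls and 0.389 in knockouts. That of Il31ra was 0.484 in controls and 3.01 in knockouts, and in fibroblasts the ratios were 0.33 and 3.2. That of Heph was 0.494 in controls and 2.04 in knockouts. The difference between genotypes was not tested for any of them, since each pair holds 1 library per side.

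In 2 of 20 genes named for the Lyve1 or Folr2 classes, 1 library lay far from the others. For Cd163 the log2 difference of positive over negative cells was 6.12 in the knockout ventral library and 3.86 to 4.21 in the others. It rests on few counts, since the negative cells held 4 UMIs of Cd163 there and 8, 12 and 11 in the others. For Bcl2a1b the log2 difference was -4.0 in the knockout ventral library and -3.15 to -3.02 in the others. Chance alone would mark about 1 gene in 20 in this way.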

How the results depend on the processing

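Among named genes, no ratio past 2-fold and no difference between the classes changed direction under the alternatives run. Other genes past 2-fold were counted but their direction was not followed. Ratios of named genes nearer to 1, between 0.730 and 1.30, crossed 1 in 45 cases, such as Aff3 knockout to control dorsally (0.730 to 1.28 after thinning), Arg2 dorsal to ventral in controls (0.810 to 1.27) and Entpd7 dorsal to ventral in knockouts (1.04 to 0.690). With at least 200 UMIs per measured gene, 54, 100, 59 and 32 genes were past 2-fold (dorsal to ventral in controls and knockouts, knockout to control dorsally and ventrally), against 205, 384, 274 and 129 at 50 UMIs. With no minimum they numbered 5661, 6139, 5726 and 5383, and with cells thinned to 4000 UMIs 117, 180, 164 and 70. DESeq2 called 408 genes higher and 536 lower in positive cells, against 763 and 824 by edgeR, and the cause was not tested. Without the replicate block, that is without the library term, edgeR called 514 and 586. Leaving out each library in turn gave 557 to 665 higher and 642 to 742 lower. No paired analysis across groups was possible because each group holds 1 library. Of the ratios of named genes, 1499 moved by less than their interval and 125 by more, 63 of these by thinning and 27 by size factors. After thinning, Dpysl3 went from 3.61 to 5.54 dorsal to ventral in controls and from 2.25 to 5.21 in knockouts, and Entpd7 from 0.383 to 0.592 knockout to control ventrally. Members with 10 or more UMIs of fibroblast, endothelial and chondrocyte markers were left out in an alternative chosen after seeing the data, because the planned limit of 3 UMIs left 24 of 810 cells and was not run. This gave 769 and 802 genes. Depth limits genes under 50 UMIs, and 1 library per group leaves the spread between mice unknown.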

Other observations

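The macrophages held a small group with fibronectin. At least 1 thinned UMI of Fn1 was present in 8.42%, 10.8%, 8.22% and 14.3% of macrophages (controls dorsal and ventral, then knockouts dorsal and ventral, an order kept below). By the same measure 22.7% to 45.6% of fibroblasts carried Fn1, but the gene was not spread evenly over macrophages. It was present in 20.6%, 18.6%, 15.5% and 24.7% of cells negative for Lyve1 and Folr2 and in 1.55%, 2%, 1.41% and 3.75% of positive cells. Of the Fn1-positive macrophages, 52.9%, 85.7%, 66.7% and 100% carried at least 5 UMIs of Retnla. A Cd209 gene was carried by 2 of 17, 1 of 21, 1 of 12 and 3 of 24 of them, beside 21.3%, 31.8%, 11% and 33.9% of all thinned macrophages. These counts are small, and in the knockout dorsal library the share was near that of all macrophages. Most Fn1-positive macrophages were negative for Lyve1 and Folr2. Of all such negative cells 6.35%, 3.49%, 2.82% and 0% carried a Cd209 gene. The shares among Fn1-positive macrophages, at 11.8%, 4.76%, 8.33% and 12.5%, were not below these. Of the macrophages with a Cd209 gene, 46.5%, 62.9%, 31.3% and 70.2% carried at least 5 UMIs of Retnla. Among all positive cells 25.6%, 53%, 9.86% and 53.8% carried Retnla at this level, and among negative cells 15.9%, 27.9%, 14.1% and 27.2%.

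Few macrophages were in cycle. At least 2 thinned UMIs of 8 cell cycle genes were present in 0.990%, 2.05%, 1.37% and 0.595% of macrophages, and 3 of 20 proliferation genes reached the level needed to be measured. The chemokine receptor gene Ccr2 was detected in 12.4%, 20%, 18.5% and 19.6% of thinned macrophages and in at most 0.0664% of fibroblasts. Cx3cr1 was detected in 15.8%, 18.5%, 27.4% and 21.4% of thinned macrophages, beside 9.87%, 11.4%, 5.30% and 9.45% of fibroblasts. Timd4, often used for long-lived resident macrophages, was detected in 39.6%, 30.3%, 25.3% and 24.4% of them. It was also detected in 60.5%, 47.0%, 40.6% and 30.4% of the cells chosen as dendritic, of which 43, 66, 32 and 23 were deep enough to be thinned, so here Timd4 did not separate macrophages from those cells.

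Ventral macrophages carried RNA of submucosal gland secretions. Lipf had no UMI in dorsal macrophages and was detected in 95.1% and 97.4% of ventral macrophages of controls and knockouts. The difference was at least 291-fold and 351-fold against a floor of 3 counts per library. These genes, with Sbpl and the Dcpp genes, were under 25% of their level in epithelial cells, and no macrophage result rests on them.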
